A study of Mus musculus with 16 samples.

Results

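The unfolded protein response and its ATF4 arm were followed through 10 genes (Ddit4, Nupr1, Ddit3, Trib3, Asns, Atf4, Xbp1, Hspa5, Herpud1 and Sel1l) in mouse osteoblasts transfected with siRNAs to Bicc1. The genes were picked by symbol, with earlier results of these data known. Every array probe annotated to one of them was taken, which gave 16 probes, 15 of them detected on all 16 arrays. All 10 genes passed the detection filter and were tested, of 9560 genes or unnamed probes tested on the array. The cells were primary osteoblasts freed with collagenase P from the calvaria (skull bones) of C57BL6/J mice 3 to 9 days old, of mixed gender. They were transfected with Lipofectamine 2000 and 1 of 3 siRNAs to Bicc1, which encodes an RNA-binding protein, or with a scrambled siRNA (SC), and RNA was taken 48 h later. BICC1_1, BICC1_2, BICC1_3 and SC each had 4 arrays, and all 16 arrays are of transfected cells, with no untreated group. Whether replicates came from separate cultures is not given in the labels, so p-values cover only array-to-array spread, which may be technical.

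When unfolded proteins build up in the endoplasmic reticulum (ER), sensors in its membrane slow translation and turn on repair genes. The sensor PERK, like other stress kinases that respond to amino acid shortage or viral RNA, phosphorylates eIF2alpha, and the transcription factor ATF4 is then translated from a message that is otherwise read poorly. ATF4 and its target CHOP (the product of Ddit3) induce stress genes and genes of amino acid supply, while IRE1, through spliced Xbp1, and ATF6 induce chaperones and the machinery that disposes of misfolded proteins. Osteoblasts secrete large amounts of collagen, and ATF4 is known for its part in their maturation and their amino acid supply. The array measures total message, so it reports neither the splicing of Xbp1 nor the translation of Atf4.

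Promoters of the 10 genes were taken from RefSeq (build GRCm38.p6), from 250 bases before to 50 bases after the gene's start, and all 10 genes matched. They are shown because ATF4 and ATF6 are known to act through short sites of this kind. The amino acid response element, to which ATF4 binds with C/EBP partners, was searched as TGATGNAA, and the ER stress response element, used by ATF6 with NF-Y, as CCAAT, any 9 bases and CCACG, both on either strand. The first was found in 4 of the 10 promoters (Nupr1, Trib3, Asns and Herpud1), against 3.97% of 32851 promoters of the same length. Its matches ran from position -110 to -103 in Nupr1 and from -112 to -105 in Herpud1, both on the strand opposite to the gene. In Trib3 it ran from 14 to 21 on the opposite strand, and in Asns from -23 to -16 on the gene's strand, counting the gene's first base as 0. The second was found in Hspa5 alone, from -65 to -47, against 0.119% of all promoters, and no promoter of the 10 matched both patterns. Only these exact patterns were searched, so other forms of either element, in Herpud1 or any other promoter, would be missed. No match to either lay in the windows of Ddit4, Sel1l, Ddit3, Atf4 and Xbp1. Capitals mark the matches in the 5 promoters that hold one, and the promoters of Ddit4 and Sel1l are added because these genes had the smallest p-values with BICC1_1.
Nupr1 (chr7:126625421-126625720, minus strand): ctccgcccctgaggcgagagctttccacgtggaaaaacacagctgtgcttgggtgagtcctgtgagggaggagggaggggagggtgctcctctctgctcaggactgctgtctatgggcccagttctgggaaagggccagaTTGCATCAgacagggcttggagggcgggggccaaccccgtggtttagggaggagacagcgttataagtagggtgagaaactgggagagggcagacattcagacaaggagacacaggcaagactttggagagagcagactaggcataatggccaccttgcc
Trib3 (chr2:152344011-152344310, minus strand): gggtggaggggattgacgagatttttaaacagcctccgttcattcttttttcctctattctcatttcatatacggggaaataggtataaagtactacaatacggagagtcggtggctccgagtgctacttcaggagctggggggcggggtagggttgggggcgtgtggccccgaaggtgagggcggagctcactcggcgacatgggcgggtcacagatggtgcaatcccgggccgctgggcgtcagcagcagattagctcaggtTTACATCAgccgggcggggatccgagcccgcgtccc
Asns (chr6:7693160-7693459, minus strand): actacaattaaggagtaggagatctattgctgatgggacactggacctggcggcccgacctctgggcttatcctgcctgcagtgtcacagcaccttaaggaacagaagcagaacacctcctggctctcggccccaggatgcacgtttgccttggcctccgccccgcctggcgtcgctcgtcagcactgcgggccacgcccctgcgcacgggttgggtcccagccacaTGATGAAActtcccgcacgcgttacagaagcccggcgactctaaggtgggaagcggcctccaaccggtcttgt
Herpud1 (chr8:94386179-94386478, plus strand): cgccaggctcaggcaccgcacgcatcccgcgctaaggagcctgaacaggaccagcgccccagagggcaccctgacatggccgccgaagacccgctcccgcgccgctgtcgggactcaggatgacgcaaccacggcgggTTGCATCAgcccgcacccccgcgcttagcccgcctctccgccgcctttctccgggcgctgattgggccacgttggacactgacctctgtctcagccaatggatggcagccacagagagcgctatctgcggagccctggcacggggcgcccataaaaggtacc
Hspa5 (chr2:34771840-34772139, plus strand): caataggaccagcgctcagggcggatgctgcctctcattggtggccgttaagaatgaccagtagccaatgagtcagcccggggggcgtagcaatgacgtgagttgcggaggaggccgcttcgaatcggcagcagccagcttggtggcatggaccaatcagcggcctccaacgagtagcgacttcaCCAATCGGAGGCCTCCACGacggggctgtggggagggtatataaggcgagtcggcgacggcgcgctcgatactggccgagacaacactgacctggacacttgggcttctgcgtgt
Ddit4 (chr10:59951721-59952020, minus strand): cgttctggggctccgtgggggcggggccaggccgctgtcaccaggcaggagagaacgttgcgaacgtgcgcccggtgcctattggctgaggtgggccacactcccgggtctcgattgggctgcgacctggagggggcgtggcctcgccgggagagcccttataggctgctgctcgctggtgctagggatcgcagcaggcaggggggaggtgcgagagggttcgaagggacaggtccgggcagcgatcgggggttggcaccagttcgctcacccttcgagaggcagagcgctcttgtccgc
Sel1l (chr12:91849108-91849407, minus strand): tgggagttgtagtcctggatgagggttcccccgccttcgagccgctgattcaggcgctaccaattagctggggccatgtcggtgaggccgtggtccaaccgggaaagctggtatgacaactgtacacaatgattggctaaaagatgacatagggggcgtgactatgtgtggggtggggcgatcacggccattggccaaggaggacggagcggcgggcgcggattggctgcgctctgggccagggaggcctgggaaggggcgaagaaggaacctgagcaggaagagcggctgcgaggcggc

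Between 11990 and 12863 probes were detected per array, at median intensities of 84.8 to 111.3. Bicc1 itself was lowered by BICC1_1, to 53.7% of SC (adjusted p = 0.0345), and by BICC1_2, to 33.3% (adjusted p = 7.98e-06). The arrays labelled BICC1_3 kept 93.3% of the SC level of Bicc1 (adjusted p = 0.776), which went against their label. A further 3 arrays stood apart from the rest: BICC1_1 replicate 3, BICC1_2 replicate 3 and BICC1_3 replicate 1. Their median shift over 57 ribosomal protein genes was -0.42, -0.09 and -0.78 on the log2 scale, against -0.05 to 0.03 on the other 13 arrays. Differences of the 10 genes and of the pathway lists are given with and without them. Over 5 osteoblast markers, summed normalised intensity was 45047 to 59623 with BICC1_1, 50358 to 55237 with BICC1_2, 50967 to 63138 on the arrays labelled BICC1_3 and 48628 to 52187 with SC, and Bglap, Bglap2, Ibsp and Postn had no probe above the detection filter. Of the 5 osteoblast markers, 4, 2 and 2 lay below SC with BICC1_1, BICC1_2 and BICC1_3. Of 7 macrophage markers kept, 7, 3 and 4 lay above SC. Their sums were 15210 to 25435 with BICC1_1, 12858 to 16698 with BICC1_2, 16723 to 19767 on the arrays labelled BICC1_3 and 14671 to 17723 with SC. The 4 skeletal muscle markers kept had median log2 differences from SC of -0.34, 0.41 and -0.23. The part of other cells in the results was not tested, and in RNA from whole cultures fewer cells of a type and less RNA per cell cannot be told apart.

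None of the 10 genes passed the test against SC with any of the 3 siRNAs. The test was limma's moderated test with Benjamini-Hochberg adjustment over all 9560 features, and a gene passed at an adjusted p under 0.05. Over all features, 0.0209% passed with BICC1_1, 0.0523% with BICC1_2, 0.0105% on the arrays labelled BICC1_3 and 0.0105% for the mean of the 3 siRNAs, so a count of 0 among 10 genes is near the background. At an unadjusted p under 0.05, 2 genes lay below SC with BICC1_1 (Ddit4 and Sel1l), where 2.91% of all features were lower at that p and 6.16% reached it in either direction. The count was 0 with BICC1_2, against 2.12% lower and 5.24% in either direction. On the arrays labelled BICC1_3 it was 1 (Ddit4, lower), against 4.26% and 9.24%. The mean of the 3 siRNAs gave 2 (Ddit4 and Sel1l, both lower), against 2.87% and 6.69%. Of the 10 point estimates, 9 were below 0 with BICC1_1, 8 with BICC1_2, 5 on the arrays labelled BICC1_3 and 7 for the mean of the 3 siRNAs, against 49.4%, 48.6%, 52% and 50.6% of all features. The median log2 difference over the 10 genes was -0.13, -0.10 and -0.08 with BICC1_1, BICC1_2 and BICC1_3, and the median of all features was 0.00, 0.00 and -0.01. Over the 13 arrays that did not stand apart, 9, 7 and 7 of the 10 lay below 0. The genes were measured on the same arrays, so these counts describe the group and test nothing.

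**Figure D1:**
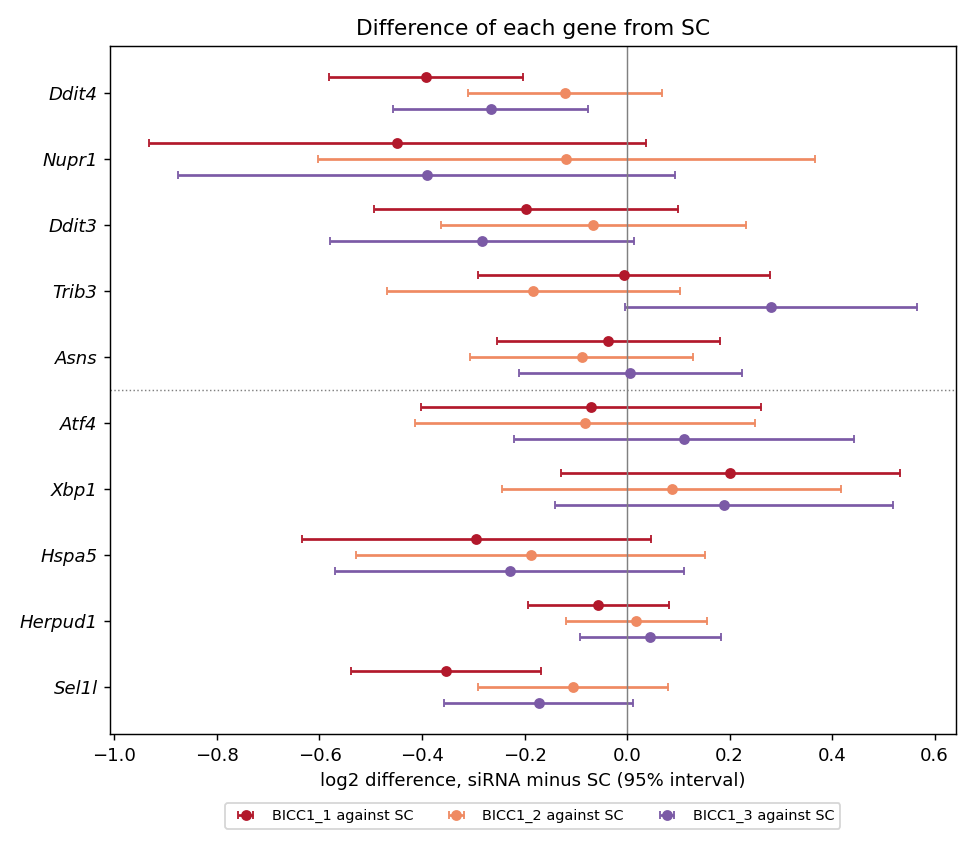
Log2 difference of each gene from SC (x axis), with its 95% interval, for BICC1_1, BICC1_2 and BICC1_3 (colours). Genes run down the page, with a dotted line under the 5 genes of the ATF4 branch. The intervals of Ddit4 and Sel1l lie below 0 with BICC1_1, and that of Ddit4 also on the arrays labelled BICC1_3.

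Ddit4 encodes REDD1, a stress-induced inhibitor of the growth kinase mTORC1, and is a target of ATF4 and of other stress pathways. It read 9.97, 9.80, 9.63 and 9.81 (log2 normalised intensity) with BICC1_1, and 10.23, 10.23, 10.16 and 10.15 with SC. Every BICC1_1 array lay below every SC array. With BICC1_2 it read 10.16, 10.10, 9.80 and 10.23, overlapping SC, and on the arrays labelled BICC1_3 it read 9.92, 9.88, 10.01 and 9.90, again all below SC. The log2 difference was -0.39 ± 0.09 with BICC1_1 (SE, adjusted p = 0.252), which is 76.2% of SC with a 95% interval of 66.8% to 86.9%. Its p ranked 17 among 9560 features. It was -0.12 with BICC1_2 (adjusted p = 1) and -0.27 on the arrays labelled BICC1_3 (adjusted p = 0.414). The siRNA with the lowest Bicc1, BICC1_2, had Ddit4 nearest to SC. In limma's test Ddit4 did not pass between BICC1_2 and BICC1_1 (adjusted p = 0.417) or BICC1_3 (adjusted p = 0.674). A relation of Ddit4 to the level of Bicc1 was not tested. Without the 3 arrays that stood apart, the difference was -0.34 with BICC1_1 (adjusted p = 0.0697), -0.03 with BICC1_2 and -0.27 on the arrays labelled BICC1_3 (adjusted p = 0.159). With arrays weighted by their quality, Ddit4 passed with BICC1_1 (-0.34, adjusted p = 0.0446).

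Sel1l, the adaptor of the HRD1 ubiquitin ligase complex through which misfolded proteins leave the ER, had the next smallest p of the 10 genes with BICC1_1. It read 10.06, 9.97, 9.79 and 10.00 with BICC1_1, and 10.30, 10.43, 10.19 and 10.32 with SC. The 2 groups did not overlap. The BICC1_2 arrays read 10.14, 10.21, 10.04 and 10.43, and on the arrays labelled BICC1_3 it read 10.19, 10.11, 10.17 and 10.07, both overlapping SC. Against SC, the log2 difference was -0.35 ± 0.09 with BICC1_1 (SE, adjusted p = 0.332), or 78.3% of SC with a 95% interval of 68.9% to 89.0%. It was -0.11 with BICC1_2 (adjusted p = 1) and -0.17 on the arrays labelled BICC1_3 (adjusted p = 0.559), and without the 3 arrays that stood apart -0.30, -0.05 and -0.19. Sel1l has further probes, both made to another RefSeq transcript than the probe used. One gave -0.38, -0.07 and -0.28 with BICC1_1, BICC1_2 and BICC1_3, close to the probe used. The other was detected on 8 of 16 arrays and gave 0.01, 0.37 and 0.64, so the probes of Sel1l disagreed. Averaged over all its kept probes, Sel1l gave -0.24 with BICC1_1, 0.06 with BICC1_2 and 0.06 on the arrays labelled BICC1_3, which turns the sign of the last 2.

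Ddit4 and Sel1l were each other's nearest gene in pattern. Likeness was measured as the root mean square difference of log2 values over the 16 arrays, each gene centred on its own mean, among 8831 other named genes. The value for this pair was 0.0769, and the median over all genes set against Ddit4 was 0.242. The nearest of 8831 genes lies below the median by construction, as for Asns (0.0530 against 0.201), so this contrast does not single out the pair. Over the 13 arrays that did not stand apart, Sel1l was still the nearest to Ddit4 (0.0742), while the nearest to Sel1l was Sp7 (0.0595), which encodes the osteoblast transcription factor osterix. BICC1_1 replicate 3 was the lowest array for both genes, at -0.56 for Ddit4 and -0.52 for Sel1l relative to the mean of SC. BICC1_2 replicate 4 was at 0.03 and 0.12. Both genes varied little within groups: their within-group SD was 0.121 for Ddit4 and 0.117 for Sel1l, against a median of 0.155 over all features.

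**Figure D2:**
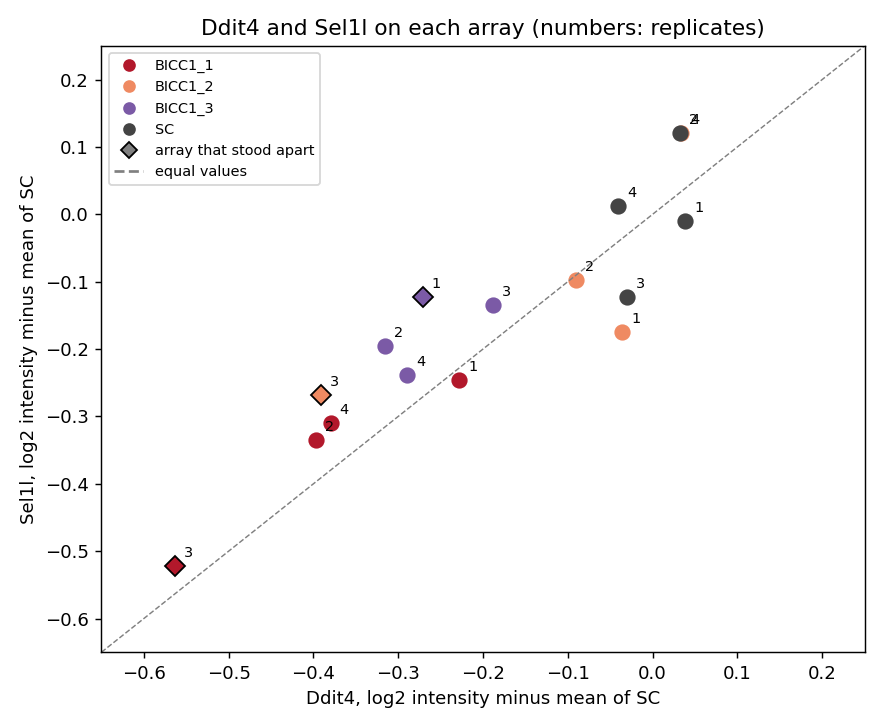
Each point is 1 array, with the log2 intensity of Ddit4 (x axis) and Sel1l (y axis) relative to the mean of SC. Colours are groups, numbers are replicates, diamonds are the 3 arrays that stood apart and the dashed line marks equal values. The 16 arrays run along the line, with BICC1_1 replicate 3 lowest for both genes.

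Nupr1, a small stress-induced chromatin protein whose promoter above carries an amino acid response element, had the largest point estimate of the 10 genes with BICC1_1 and also the widest spread. It read 11.71, 11.75, 11.07 and 11.59 with BICC1_1, and 12.06, 12.04, 12.01 and 11.79 with SC. All BICC1_1 arrays lay below SC. Its BICC1_2 values were 11.78, 11.78, 11.61 and 12.27, and on the arrays labelled BICC1_3 it read 10.73, 11.99, 11.75 and 11.87. In each of the 4 groups 1 array sat away from the rest of its group. It was high in BICC1_2 (replicate 4). It was low in BICC1_1 (replicate 3), in BICC1_3 (replicate 1) and in SC (replicate 4). The log2 differences of Nupr1 from SC were -0.45 ± 0.23 with BICC1_1 (SE, adjusted p = 0.838), -0.12 with BICC1_2 (adjusted p = 1) and -0.39 on the arrays labelled BICC1_3 (adjusted p = 0.593). Its within-group SD of 0.364 exceeded that of 96% of features. Without the 3 arrays that stood apart, the differences were -0.30 (adjusted p = 0.353), -0.03 and -0.11 (adjusted p = 0.766). Leaving out BICC1_3 replicate 1 alone gave -0.11 on the arrays labelled BICC1_3 (adjusted p = 0.959).

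Ddit3 encodes CHOP, the transcription factor by which prolonged ER stress is tied to cell death. It read 9.76, 9.56, 9.48 and 9.58 with BICC1_1, and 9.83, 9.86, 9.90 and 9.58 with SC. The lowest SC array lay within the BICC1_1 values. With BICC1_2 it read 9.74, 9.67, 9.48 and 10.02, and on the arrays labelled BICC1_3 it read 9.07, 9.68, 9.77 and 9.51. Relative to SC, its log2 difference was -0.20 ± 0.14 with BICC1_1 (SE, adjusted p = 0.934), -0.07 with BICC1_2 (adjusted p = 1) and -0.28 on the arrays labelled BICC1_3 (adjusted p = 0.558). A further probe of Ddit3 gave -0.25, -0.08 and -0.36, the same order. Leaving out the 3 arrays that stood apart brought the differences of the probe used to -0.16, 0.02 and -0.14.

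Trib3 encodes a pseudokinase that is induced by ATF4 and CHOP and restrains them in turn. It read 7.12, 6.95, 7.14 and 6.96 with BICC1_1, and 7.08, 7.30, 6.96 and 6.85 with SC. These values interleave. The BICC1_2 arrays read 6.99, 6.56, 6.72 and 7.19, and on the arrays labelled BICC1_3 it read 7.61, 7.13, 7.23 and 7.34. The log2 difference was -0.01 ± 0.13 with BICC1_1 (SE, adjusted p = 0.997), -0.18 with BICC1_2 (adjusted p = 1) and 0.28 on the arrays labelled BICC1_3 (adjusted p = 0.545), so the last stood on the other side of SC from Ddit4, Nupr1 and Ddit3. Without the 3 arrays that stood apart, the differences were -0.04, -0.13 and 0.19. The probe of Trib3 was dim, at 144.8 to 248.4 before normalisation, where array medians were 84.8 to 111.3.

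Asns, asparagine synthetase, is the textbook reporter of the ATF4 response to amino acid shortage. It read 13.17, 13.06, 13.34 and 13.11 with BICC1_1, and 13.18, 13.23, 13.16 and 13.26 with SC. Its BICC1_2 values were 13.01, 13.06, 13.13 and 13.26, and on the arrays labelled BICC1_3 it read 13.55, 13.02, 13.20 and 13.08. In each siRNA group 1 array lay above every SC array. Below every SC array lay 2 arrays with BICC1_1, 3 with BICC1_2 and 2 of those labelled BICC1_3. Every group overlapped SC. Against SC, the log2 difference was -0.04 ± 0.10 with BICC1_1 (SE, 95% interval -0.25 to 0.18), -0.09 with BICC1_2 (-0.31 to 0.13) and 0.01 on the arrays labelled BICC1_3 (-0.21 to 0.22). The adjusted p-values were 0.978, 1 and 0.987. One of its further probes gave nearly the same differences (-0.04, -0.09 and 0.02), while a dimmer one gave -0.40, -0.49 and -0.04, so its probes disagreed with BICC1_1 and BICC1_2. Over the 13 arrays that did not stand apart, the probe used gave -0.09 with BICC1_1, -0.09 with BICC1_2 and -0.11 on the arrays labelled BICC1_3, where the sign turned.

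**Figure D3:**
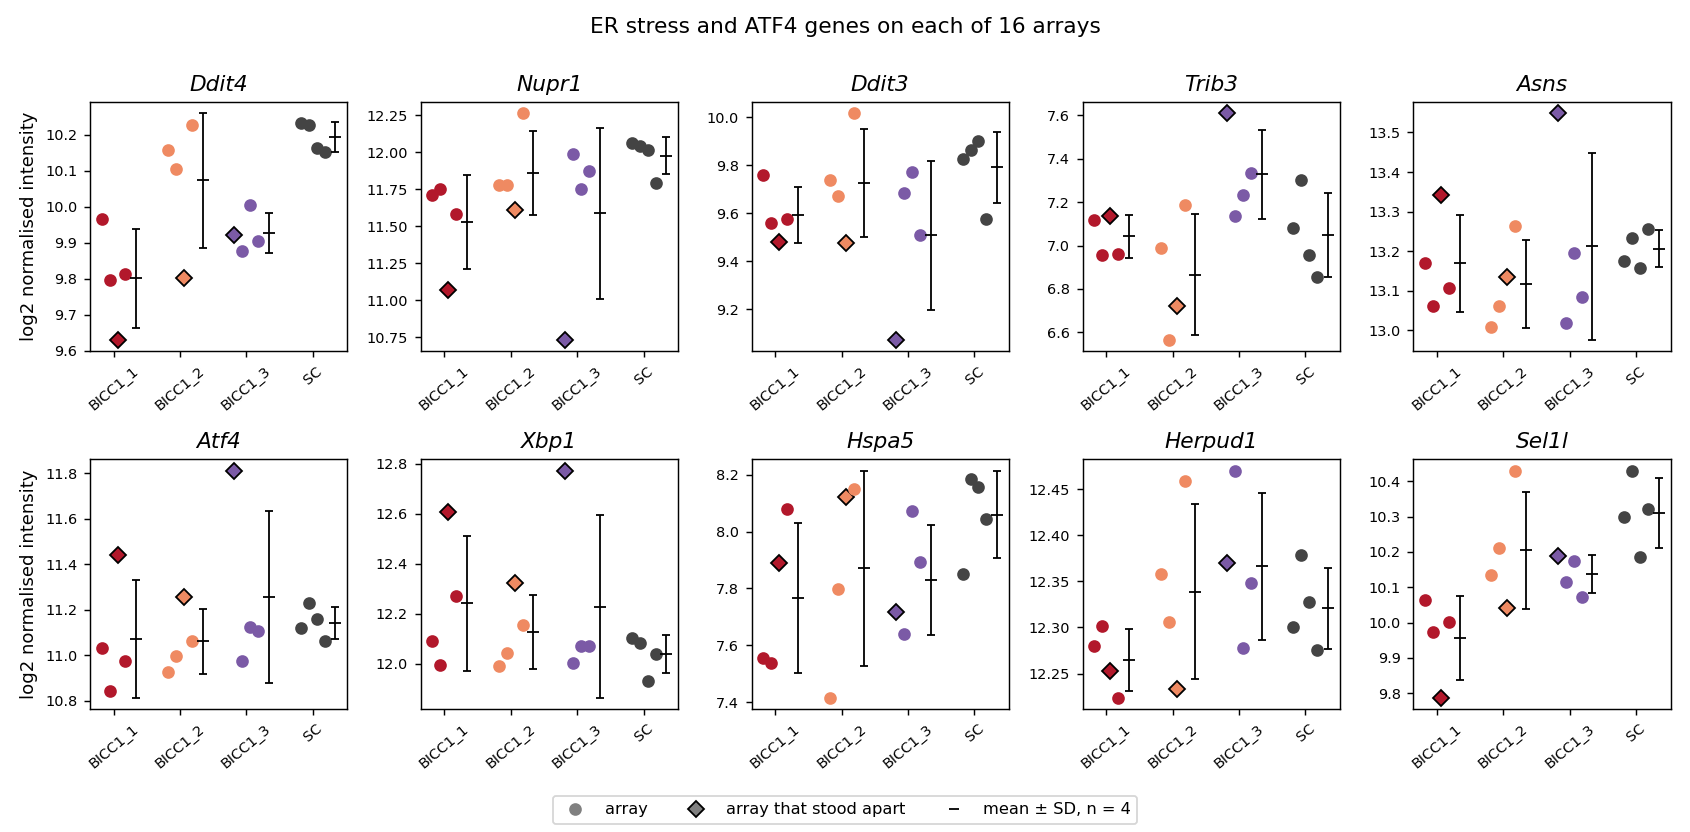
Log2 normalised intensity (y axis, own scale per gene) of the 10 genes on each of the 16 arrays, by group. Diamonds with a dark edge are the 3 arrays that stood apart, and black bars are mean ± SD (n = 4). Ddit4 lies below SC on every BICC1_1 and BICC1_3 array, and Sel1l on every BICC1_1 array.

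Atf4, the message of the transcription factor itself, read 11.03, 10.84, 11.44 and 10.97 with BICC1_1, and 11.12, 11.23, 11.16 and 11.06 with SC. BICC1_2 arrays gave 10.93, 10.99, 11.26 and 11.06, and on the arrays labelled BICC1_3 it read 11.81, 10.97, 11.12 and 11.11. The highest array of each siRNA group was the one that stood apart. Relative to SC, its log2 difference was -0.07 ± 0.16 with BICC1_1 (SE, adjusted p = 0.975), -0.08 with BICC1_2 (adjusted p = 1) and 0.11 on the arrays labelled BICC1_3 (adjusted p = 0.792). Without those 3 arrays it was -0.19 (adjusted p = 0.309), -0.15 and -0.07, so the value labelled BICC1_3 turned its sign, and it did so on leaving out BICC1_3 replicate 1 alone (-0.07).

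Xbp1, whose message IRE1 splices and whose product drives chaperone and disposal genes, was the one gene of the 10 with point estimates above 0 with every siRNA. It read 12.09, 12.00, 12.61 and 12.27 with BICC1_1, and 12.10, 12.09, 11.93 and 12.04 with SC. BICC1_2 arrays gave 11.99, 12.04, 12.32 and 12.15, and on the arrays labelled BICC1_3 it read 12.77, 12.00, 12.07 and 12.07. Again the highest array of each siRNA group was the one that stood apart, and every group overlapped SC. The log2 difference was 0.20 ± 0.16 with BICC1_1 (SE, adjusted p = 0.941), 0.09 with BICC1_2 (adjusted p = 1) and 0.19 on the arrays labelled BICC1_3 (adjusted p = 0.656). It was 0.08, 0.02 and 0.01 without the 3 arrays.

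Hspa5 encodes BiP, the main ER chaperone of the Hsp70 family, and its promoter above holds the ER stress response element. It read 7.56, 7.54, 7.89 and 8.08 with BICC1_1, and 7.85, 8.19, 8.16 and 8.04 with SC. The BICC1_2 arrays read 7.42, 7.80, 8.12 and 8.15, and on the arrays labelled BICC1_3 it read 7.72, 7.64, 8.07 and 7.89. Within each siRNA group some arrays lay at the SC level and others below it. Its probe, though detected on all 16 arrays, was dim: 192.1 to 399.7 before normalisation, where array medians were 84.8 to 111.3. Against SC, the log2 difference was -0.29 ± 0.16 with BICC1_1 (SE, adjusted p = 0.868), -0.19 with BICC1_2 (adjusted p = 1) and -0.23 on the arrays labelled BICC1_3 (adjusted p = 0.626). Its differences over the remaining 13 arrays were -0.34, -0.27 and -0.19. Leaving out BICC1_2 replicate 1 alone brought the BICC1_2 value to -0.036, and leaving out BICC1_2 replicate 4 brought it to -0.28.

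Herpud1, a stress-induced ER membrane protein of the same disposal complex as Sel1l, was the steadiest of the 10 genes, with a within-group SD of 0.0678 that exceeded that of only 2.94% of features. It read 12.28, 12.30, 12.25 and 12.22 with BICC1_1, and 12.30, 12.38, 12.33 and 12.28 with SC. BICC1_2 arrays gave 12.36, 12.31, 12.23 and 12.46, and on the arrays labelled BICC1_3 it read 12.37, 12.47, 12.28 and 12.35. All siRNA groups overlapped SC. The log2 difference was -0.06 with BICC1_1 (95% interval -0.19 to 0.08), 0.02 with BICC1_2 (-0.12 to 0.16) and 0.05 on the arrays labelled BICC1_3 (-0.09 to 0.18). With BICC1_1 its interval spanned 87.4% to 105.8% of SC. A further probe gave -0.02, 0.03 and 0.05. The probe used gave -0.05, 0.05 and 0.04 over the 13 arrays that did not stand apart.

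Counted by ranges, 3 genes had every BICC1_1 array below every SC array (Ddit4, Nupr1 and Sel1l), where 2.67% of all features did. On the arrays labelled BICC1_3 it was 1 gene (Ddit4), against 3.53% of all features, and with BICC1_2 it was 0, against 2.73%. No gene of the 10 had a siRNA group wholly above SC, where 3.68%, 3.87% and 3.06% of all features did with BICC1_1, BICC1_2 and BICC1_3. The genes were chosen with earlier results of these data known, so these counts describe the group and test nothing.

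The ATF4 branch (Ddit4, Nupr1, Ddit3, Trib3 and Asns) was set against the chaperone and disposal genes (Hspa5, Sel1l and Herpud1). Their median log2 differences were -0.20 and -0.29 with BICC1_1, -0.12 and -0.11 with BICC1_2, and -0.27 and -0.17 on the arrays labelled BICC1_3. The branch minus the chaperone and disposal genes was thus 0.10, -0.01 and -0.09, with no common sign. Over the 13 arrays that did not stand apart it was 0.14, 0.016 and 0.082, and on the mean of all kept probes 0.017, -0.14 and -0.31. The median of 3 genes is the value of 1 gene. With BICC1_1 this was Hspa5, with its dim probe, and in the other 2 groups Sel1l, whose probes disagreed. In the wider lists below, the medians were 0.007, -0.05 and 0.02 for 14 ER chaperones and -0.001, -0.02 and 0.05 for 14 disposal genes. Averaged per array relative to SC, the ATF4 branch lay at -0.22 ± 0.09, -0.12 ± 0.19 and -0.13 ± 0.09 with BICC1_1, BICC1_2 and BICC1_3, and at 0 ± 0.09 in SC (SD, n = 4 each). The chaperone and disposal genes lay at -0.23 ± 0.07, -0.09 ± 0.16 and -0.12 ± 0.04, and at 0 ± 0.08 in SC. The difference between the 2 means was 0.02 ± 0.12, -0.02 ± 0.15 and -0.01 ± 0.08 with the 3 siRNAs and 0 ± 0.09 in SC, so the branches did not separate by more than the spread between arrays. Within the branch the genes were uneven. With BICC1_1, Ddit4 and Nupr1 lay furthest below SC and Trib3 and Asns nearest to 0. The promoters of Nupr1, Trib3 and Asns printed above hold a match to the amino acid response element, at both ends of this order. None of these differences passed the test, and any part of the element in the order was not tested.

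**Figure D4:**
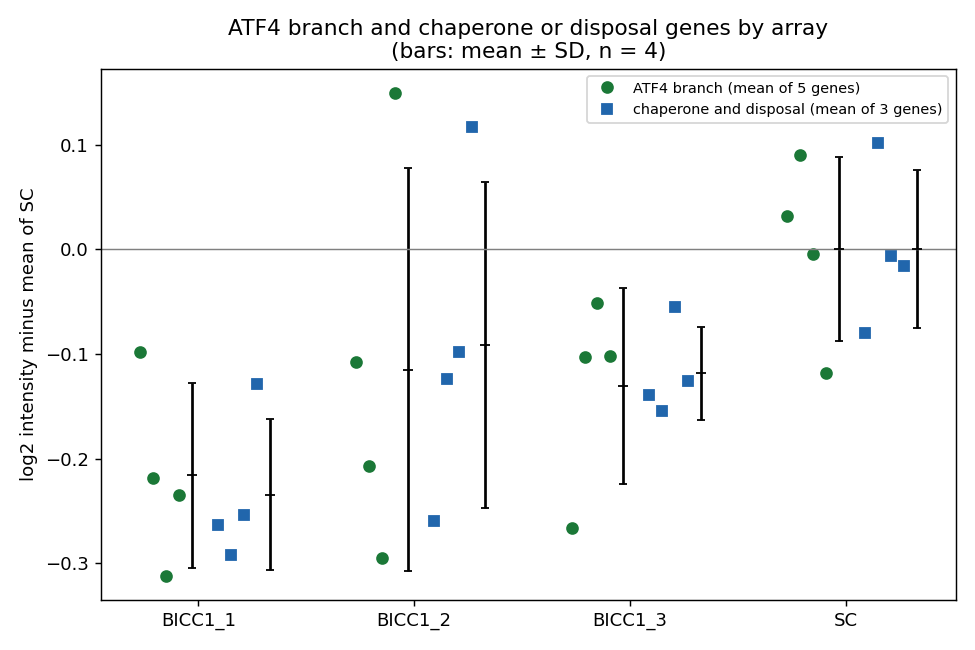
Mean log2 intensity relative to SC (y axis) of the 5 ATF4 branch genes (circles) and the 3 chaperone and disposal genes (squares) on each array, by group, with mean ± SD (n = 4). With BICC1_1 the means are -0.22 and -0.23. Both kinds of gene sit below 0 on each of the 4 BICC1_1 arrays and on each of the 4 arrays labelled BICC1_3.

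Several of the 10 genes lay far from the other arrays on the 3 arrays that stood apart, in both directions. Relative to the mean of the other 13 arrays, Atf4 lay 0.39, 0.21 and 0.76 higher on BICC1_1 replicate 3, BICC1_2 replicate 3 and BICC1_3 replicate 1, beyond the -0.20 to 0.18 spanned by those 13. Xbp1 lay 0.54, 0.26 and 0.71 higher, beyond -0.13 to 0.21. Ddit3 gave -0.24, -0.25 and -0.65, below the -0.22 to 0.29 of the other arrays, and Nupr1 gave -0.81, -0.27 and -1.15, below its range on BICC1_1 replicate 3 and BICC1_3 replicate 1. Asns exceeded its range on the same 2 arrays (0.20 and 0.41), and Trib3 on BICC1_3 replicate 1 alone (0.56). Ddit4 and Sel1l fell outside their ranges only on BICC1_1 replicate 3, at -0.42 and -0.40, while Hspa5 and Herpud1 stayed within theirs on all 3 arrays. Of the 10 genes, 2 were above the range of the other arrays on all 3 and 1 was below it, against 6.72% and 7.18% of all features. Taken singly, BICC1_1 replicate 3 had 3 of the 10 above and 4 below, against 22.1% and 22.3% of all features. For BICC1_2 replicate 3 it was 2 and 1, against 14.3% in each direction. For BICC1_3 replicate 1 it was 4 and 2, against 28.3% and 27.7%. The part of this deviation in each siRNA difference was not tested beyond leaving these arrays out. Without them, 4 of the 10 genes (Ddit4, Sel1l, Atf4 and Nupr1) reached an unadjusted p under 0.05 with BICC1_1, where 11.2% of all features did. It was 1 with BICC1_2 (Atf4), against 8.77%, and 2 on the arrays labelled BICC1_3 (Ddit4 and Sel1l), against 11.8%. None passed after adjustment.

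**Figure D5:**
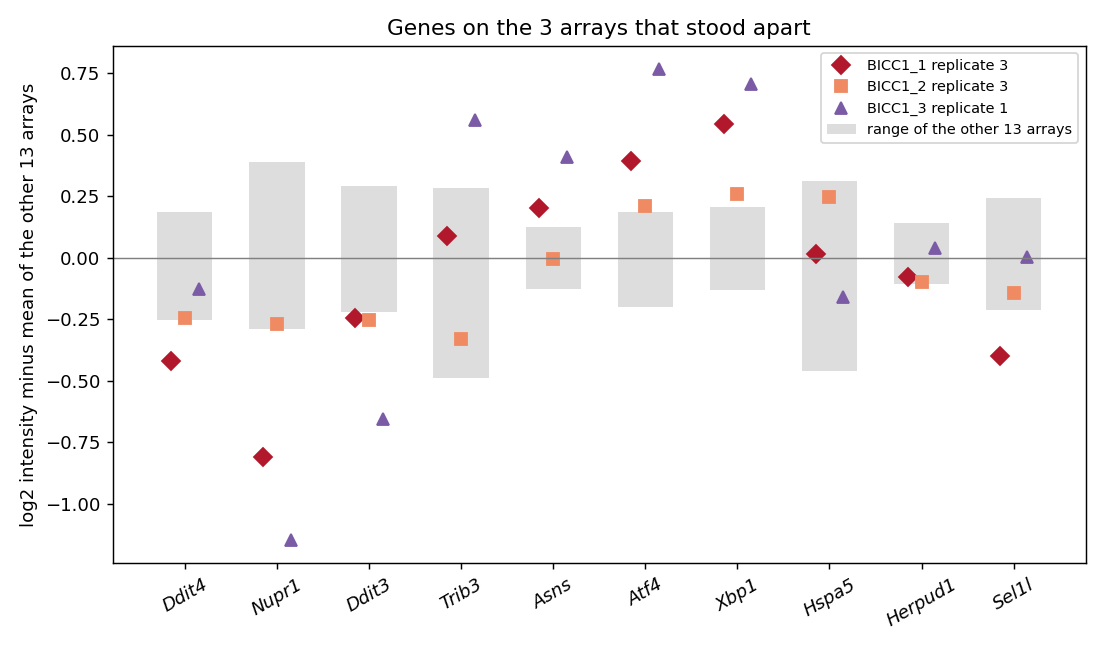
Log2 intensity of each gene on the 3 arrays that stood apart (symbols), relative to the mean of the other 13 arrays, whose range is the grey bar. Atf4 and Xbp1 sit above the bar on all 3 arrays, and Ddit3 below it.

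The siRNAs were also set against each other, without SC. No gene of the 10 passed between any pair, where 0.282% of features passed for BICC1_1 against BICC1_2, 0.0732% for BICC1_1 against BICC1_3 and 0.115% for BICC1_2 against BICC1_3. At an unadjusted p under 0.05 there were 2 (Ddit4 and Sel1l), 1 (Trib3) and 1 (Trib3) in these pairs, against 6.38%, 6.09% and 8.28% of all features. The smallest p in limma's test was that of Trib3 between BICC1_2 and BICC1_3, at a log2 difference of -0.46 ± 0.13 (SE, adjusted p = 0.352). Ddit4 was 0.27 lower with BICC1_1 than with BICC1_2 on the log2 scale (difference -0.27, adjusted p = 0.417), and Sel1l differed by -0.25 (adjusted p = 0.496). The lower Ddit4 and Sel1l with BICC1_1 was thus not shown to differ from the level with BICC1_2. Computed over the other 13 arrays, these 3 differences were -0.32 for Trib3 (adjusted p = 0.476), -0.30 for Ddit4 (adjusted p = 0.0626) and -0.25 for Sel1l (adjusted p = 0.261).

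For the other genes, the nearest in pattern over the 16 arrays was Vkorc1 for Nupr1 (0.148), Kcnmb4 for Ddit3 (0.107), Eloc for Trib3 (0.122) and Lpcat3 for Asns (0.0530). Hnrnph1 was nearest to Atf4 (0.0643), Msmo1 to Xbp1 (0.0672), Snx3 to Hspa5 (0.129) and Hspa2 to Herpud1 (0.0486). Apart from Ddit4 and Sel1l, no gene of the 10 had another of the 10 as its nearest. Every one of these other nearest genes was replaced by another when the 3 arrays that stood apart were left out.

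The wider pathway was described with 8 lists of 113 genes, of which 84 were tested, a few of them in more than 1 list. None of the 84 passed against SC with any siRNA. At an unadjusted p under 0.05 there were 5 with BICC1_1 (Aldh1l2, Slc6a9, Chac1, Slc7a3 and Lars, all lower) and 4 with BICC1_2 (Aars, Slc7a3, Shmt2 and Pdia6, all lower). The arrays labelled BICC1_3 had 6 (Slc7a3, lower, and Calr, Sesn2, Ube2g2, Cebpb and Eif2b2, higher). These are 5.95%, 4.76% and 7.14% of the 84, against 6.16%, 5.24% and 9.24% of all features. Aars, Pdia6, Sesn2 and Ube2g2 are named after their values were seen. When the arrays that stood apart were left out, 13.3%, 8.43% and 9.64% of 83 list genes reached that p, against 11.2%, 8.77% and 11.8% of all features, and none passed. The median log2 difference over the 84 was -0.04, -0.06 and 0.00. Of the 84, 55, 56 and 41 lay below 0 with BICC1_1, BICC1_2 and BICC1_3, against 49.4%, 48.6% and 52% of all features. Genes of a list were measured on the same arrays, so these counts and the list counts that follow describe and test nothing. Of 9 enzymes of amino acid synthesis, several of them ATF4 targets, 9, 8 and 7 lay below 0. Their medians were -0.11, -0.15 and -0.08, and 1, 1 and 0 of them reached an unadjusted p under 0.05 in limma's test. Among these enzymes Aldh1l2, a mitochondrial folate enzyme, gave -0.35, -0.17 and -0.18. Shmt2, the mitochondrial serine hydroxymethyltransferase, gave -0.15, -0.28 and -0.14. Of 7 amino acid transporters, 7, 4 and 3 lay below 0, with the glycine transporter Slc6a9 at -0.31, -0.11 and -0.03 and Slc7a3, a carrier of cationic amino acids, at -0.20, -0.22 and -0.32 (adjusted p = 0.476 for the mean of the 3 siRNAs). Of 13 tRNA-charging enzymes, 9, 12 and 6 lay below 0, with the leucyl enzyme Lars at -0.21, -0.13 and -0.13 and the tryptophanyl enzyme Wars at -0.10, -0.17 and -0.04. When the arrays that stood apart were left out, 8, 7 and 6 of 8 synthesis enzymes, 7, 3 and 4 of 7 transporters and 9, 10 and 9 of 13 charging enzymes lay below 0.

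Further stress genes showed no common direction. Of 12 other ATF4 stress targets, 9, 4 and 7 lay below 0 with BICC1_1, BICC1_2 and BICC1_3. Chac1, which degrades glutathione and is induced by ATF4, gave -0.19, -0.10 and -0.09, while Cebpb, a partner of ATF4 in binding DNA, gave 0.07, 0.18 and 0.24. Among 10 kinases and brakes of the integrated stress response, 6, 8 and 5 were below 0, with Dnajc3, an inhibitor of PERK, at -0.09, -0.10 and -0.07 and Eif2b2, a subunit of the exchange factor that phosphorylated eIF2alpha blocks, at 0.12, -0.01 and 0.16. Of 14 ER chaperones, 6, 10 and 5 lay below 0. Pdia3, a disulfide isomerase of glycoprotein folding, gave 0.15, 0.11 and 0.17, and Calr, the lectin chaperone calreticulin, gave 0.12, -0.02 and 0.60. The last rested on an uneven group: Calr read 11.46, 10.18, 10.92 and 11.02 on the arrays labelled BICC1_3, and 10.26, 10.53, 10.20 and 10.20 with SC (adjusted p = 0.414). Of 14 disposal genes 7, 9 and 6 lay below 0, with the ubiquitin ligase Rnf139 at 0.15, 0.19 and 0.22 and the ER lectin Erlec1 at 0.06, 0.14 and 0.15. Of 7 sensors and their processing factors 3 lay below 0 with each siRNA, with Mbtps1, the site-1 protease that cleaves ATF6, at 0.07, 0.12 and 0.15 and Creb3l2, a related membrane-bound factor, at -0.12, -0.11 and -0.08. Without the 3 arrays that stood apart, 5, 8 and 10 of 14 chaperones lay below 0, so on the arrays labelled BICC1_3 the balance of the list turned. The counts were then 9, 5 and 6 of 12 stress targets, 5, 7 and 5 of 10 kinases and brakes, 10, 6 and 8 of 14 disposal genes, and 4, 4 and 5 of 7 sensors. Calr was 0.42 on the arrays labelled BICC1_3 without them (adjusted p = 0.425), and with BICC1_1 Cebpb was at -0.03 and Mbtps1 at -0.05, on the other side of SC. Signs also turned, to values next to 0, for Dnajc3 and Erlec1 with BICC1_1 and for Eif2b2 and Calr with BICC1_2. No gene named from the lists passed the test.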

How the data were processed

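Each of 16 RNA samples was hybridised to 1 Illumina bead array. The deposited table holds linear bead intensity without normalisation, per the file headers, with a detection p-value column per the file headers whose score is near 1 for bright probes, so detection p was taken as 1 minus it. The submitters' processing notes name GenomeStudio. A second deposited table holds log2 values, whose normalisation is not given in the sources used here, and it served as an alternative.

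Intensities were corrected and quantile-normalised with neqc of limma 3.58.1 (R 4.3.3, offset 16). Probes with detection p under 0.05 on at least 4 arrays were kept (12802 of 25697), and the brightest stood for its gene. One limma model (lmFit, eBayes) covered the 4 groups, with Benjamini-Hochberg adjustment over 9560 features, and it was tested on simulated data. Per-array values in the text are log2 normalised intensities of the probe used, in replicate order. The number of arrays limits the precision.

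The members and lists were chosen with earlier results of these data known. From each of 8 pathway lists, the 2 genes with the lowest p for the mean of the 3 siRNAs are named, and for each member the gene nearest in pattern. Arrays that share a replicate number did not uniformly deviate together from their group means. Correlations of 24 such pairs ran from -0.594 to 0.609 (median -0.025), 9 of them over 0.1. For 72 pairs of other numbers they ran from -0.508 to 0.705 (median 0.024), 22 of them over 0.1. Of the 3 arrays that stood apart, those of BICC1_1 and BICC1_2 are both replicate 3.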

Additional observations from a re-analysis of the deposited data

Results flagged for a closer look

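Xbp1 read 12.77 (log2 normalised intensity) on BICC1_3 replicate 1, against 12.00 to 12.07 on the other arrays of that group, a gap large for a group of 4 by Dixon's test at the 95% level. It was the single such array among 40 groups tested (10 genes in 4 groups), where chance alone marks about 5%.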

How the results depend on the processing

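The 10 genes were refitted under 25 alternatives, 1 of them (leaving out the 3 arrays that stood apart) chosen after seeing the data. No gene passed against SC except under array quality weights, where the count with BICC1_1 was 1 (Ddit4, -0.34, adjusted p = 0.0446). Over all alternatives the adjusted p of Ddit4 with BICC1_1 ran from 0.0446 to 1 at log2 differences of -0.45 to -0.33, and that of Sel1l from 0.078 to 1 at -0.39 to -0.24. Bicc1 passed with BICC1_1 under 14 of the 25 alternatives (adjusted p 0.000437 to 0.224) and with BICC1_2 under all 25.

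Counts over all features were few and moved with the setting. With BICC1_1, 2 features passed, against 0 under median scaling, 1 on the mean of kept probes, 30 under array quality weights, 1 with the replicate number as a block and 0 to 5 on leaving out 1 array. With BICC1_2, 5 passed, against 2 under median scaling, 60 under weights, 11 without the 3 arrays and 2 to 9 on leaving out 1 array. On the arrays labelled BICC1_3, 1 passed, against 0 under median scaling, 2 in the authors' table, 14 under weights, 4 with the block, 0 without the 3 arrays and 0 to 12 on leaving out 1 array. For the mean of the 3 siRNAs, 1 passed, against 26 under weights and 0 to 1 on leaving out 1 array. The cause was not tested.

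The ATF4 branch minus the chaperone and disposal genes was 0.10 with BICC1_1 and ran from -0.027 to 0.18 on leaving out 1 array, against -0.010 in the authors' table, 0.017 on the mean of kept probes and 0.041 without background correction. With BICC1_2 it was -0.01, against -0.14 on the mean of kept probes, and -0.06 to 0.04 on leaving out 1 array. On the arrays labelled BICC1_3 it was -0.09, against -0.31 on the mean of kept probes, 0.083 under weights and 0.082 without the 3 arrays, and -0.12 to 0.083 on leaving out 1 array. For the mean it was 0.03, against -0.17 on the mean of kept probes and -0.048 to 0.082 on leaving out 1 array.

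The replicate block changed no call among the 10 genes, and 6 of 16 arrays lay closest to an array of their own number. A block on the slide was not run, since the slide of each array is not given in the sources used here. The number of arrays limits what could be detected, and so does signal near background for the Sel1l probe detected on 8 arrays. The probes used for Hspa5 and Trib3 were dim as well, at the values given with these genes.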
